A study of Mus musculus with 6 samples.

Results

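The PARP family genes described here are 10 mouse genes whose products attach ADP-ribose, taken from NAD+, to proteins or nucleic acids: Parp1, Parp2, Parp3, Parp8, Parp9, Parp10, Parp11, Parp12, Parp14 and Parp16. They were found by symbol among the 22105 gene rows of the table and were chosen by a reading of their levels in these same libraries, so their levels and fitted differences are given as a description, without p-values. Of the 10, 9 had a mean of at least 1 FPKM (fragment counts scaled to transcript length and library size) over all libraries and entered the fit with 10229 genes. Parp8 did not. The libraries came from RAW264.7, a mouse macrophage line, in 2 groups of 3: cells given PBS (phosphate buffered saline) and cells given nanoparticles named CM-PEG-PLGA@DOX/R848, dosed to carry 2 µg/mL of DOX, each over 24 h. DOX, or doxorubicin, traps topoisomerase II on DNA, R848 is resiquimod, an agonist of the endosomal receptor Tlr7, and PLGA and PEG are carrier polymers. The sources used here do not spell out CM. No group analysed here received DOX, R848 or the empty carrier alone, so their parts in any difference cannot be told apart. RAW264.7 is 1 transformed line, and the labels do not describe the replicates as separate cultures. The p-values therefore reflect variation among these libraries, some or all of which may be technical. In bulk RNA, fewer cells carrying a transcript and less of it per cell cannot be told apart.

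PARP enzymes fall into classes by what they build. Parp1 and Parp2 bind DNA strand breaks and build chains of poly(ADP-ribose) that recruit repair proteins, and Parp3 also binds breaks but adds mostly single ADP-ribose units. The other members described here are classed as mono-ADP-ribosylating, and several of them, among them Parp9, Parp10, Parp12 and Parp14, are known as interferon-inducible genes in macrophages. Active PARP enzymes spend NAD+, which links the family to NAD+ synthesis, and glycohydrolases such as Parg remove what they attach.

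All 10 listed macrophage markers were above 1 FPKM in every library. Their summed level was 3764 to 3926 FPKM in PBS and 1649 to 1778 FPKM in nanoparticle libraries. Lyz2, the lysozyme gene, held the highest single value, 1539.6 FPKM in a PBS library, and Lyz2, Csf1r, Cd14 and Cd68 were lower in every nanoparticle library than in any PBS library. Not all markers went that way: Adgre1 was at 1.61 to 1.96 FPKM in PBS and 11.2 to 13.4 FPKM with nanoparticles, Fcgr1 at 33.7 to 37.3 and 38.6 to 41.4 FPKM, and the ranges of Spi1 overlapped. The marker lists of T cells, B cells, fibroblasts and epithelial cells each summed to at most 0.567 FPKM in any library. Cd3g, Cd8a and Krt18 were at 0 in all 6. Between 12678 and 12872 genes were above 0 FPKM in a PBS library, against 15723 to 15989 in a nanoparticle library. The part of these differences in the values of single genes was not tested.

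Promoter sequence is shown for 4 members, from 250 bases before to 50 after the RefSeq gene start (GRCm38.p6). RefSeq windows were found for 7 of the 10 members, all but Parp9, Parp10 and Parp14, and Parp11 had 2 starts, which gave 8 windows. Each was searched on both strands for 3 motifs: the interferon-stimulated response element core GAAANNGAA (called ISRE here), the STAT site TTCNNNGAA (called GAS) and the E2F sites TTTGGCGC and TTTCCCGC. Capitals mark the matches. Parp11 (chr6:127446590-127446889, plus strand) and Parp16 (chr9:65214440-65214739, plus strand) are shown because they held the only matches among the members' windows, Parp3 (chr9:106476900-106477199, minus strand) because it had the highest log2 difference and Parp1 (chr1:180568641-180568940, plus strand) because it had the lowest. Starts are those of RefSeq and can differ from the gene bounds given below. The Parp16 window lies inside those bounds, which begin at 65195353, so it does not cover that gene start.
Parp11: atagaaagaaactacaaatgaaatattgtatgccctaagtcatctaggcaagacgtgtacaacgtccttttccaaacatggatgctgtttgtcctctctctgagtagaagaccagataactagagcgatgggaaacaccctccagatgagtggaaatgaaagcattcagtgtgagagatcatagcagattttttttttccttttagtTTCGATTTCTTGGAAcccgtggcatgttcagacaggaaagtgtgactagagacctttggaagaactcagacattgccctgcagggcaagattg
Parp16: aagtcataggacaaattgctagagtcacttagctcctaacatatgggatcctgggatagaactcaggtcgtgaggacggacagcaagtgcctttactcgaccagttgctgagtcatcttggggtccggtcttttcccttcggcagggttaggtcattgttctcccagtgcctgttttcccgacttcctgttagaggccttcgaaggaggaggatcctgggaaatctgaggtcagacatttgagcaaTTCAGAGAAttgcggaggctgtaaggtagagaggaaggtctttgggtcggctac
Parp3: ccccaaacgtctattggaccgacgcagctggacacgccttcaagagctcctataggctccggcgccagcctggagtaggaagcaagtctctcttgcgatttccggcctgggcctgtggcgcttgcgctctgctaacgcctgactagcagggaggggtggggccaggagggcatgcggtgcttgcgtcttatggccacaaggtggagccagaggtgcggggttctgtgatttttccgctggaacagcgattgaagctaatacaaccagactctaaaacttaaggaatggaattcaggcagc
Parp1: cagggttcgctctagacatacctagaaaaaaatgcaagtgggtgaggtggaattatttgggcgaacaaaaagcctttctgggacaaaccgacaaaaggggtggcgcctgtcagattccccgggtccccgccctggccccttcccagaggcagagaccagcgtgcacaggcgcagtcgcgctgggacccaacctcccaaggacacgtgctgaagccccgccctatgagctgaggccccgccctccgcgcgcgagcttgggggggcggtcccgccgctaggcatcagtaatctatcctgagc
In the upstream Parp11 window an ISRE match on the minus strand began 43 bases before the start and a GAS match began 37 bases before it, so the matches share bases. The Parp16 window held a GAS match beginning 4 bases before its start. No E2F match was present in any of the 8 windows. Among all 32851 RefSeq windows of this length, 8.56% held the ISRE letters, 8.30% the GAS letters and 1.56% an E2F site. GC content was 42.0% in the upstream Parp11 window and 50.7% in that of Parp16, against 57.7% for Parp3, 62.0% for Parp1 and a median of 52.7% over all windows.

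The DNA break sensors moved in both directions. Parp1 and Parp2 were lower in nanoparticle libraries, and Parp3 was higher by a larger step than any other member. Parp1 (ENSMUSG00000026496, chromosome 1, 180568924 to 180601254, GRCm38, plus strand), the main maker of poly(ADP-ribose) after DNA damage, stood at 86.8, 86.7 and 86.5 FPKM in PBS and at 19.9, 21.5 and 21.9 FPKM with nanoparticles. Each PBS library was at least 3.95 times every nanoparticle library, and the PBS values were nearly equal. The mean level fell from 86.7 ± 0.151 to 21.1 ± 1.06 FPKM (SD, n = 3), a log2 difference of -1.99 ± 0.06 (SE) in log2(FPKM + 1). Among the 10229 genes it ranked 63 from the lowest difference. In PBS 8.85% of tested genes had a higher mean FPKM than Parp1, and in nanoparticle libraries 38.9%.

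Parp2 (ENSMUSG00000036023, chromosome 14, 50807841 to 50821301, plus strand), the second poly(ADP-ribose) maker activated by breaks, stood at 25.1, 25.0 and 26.5 FPKM in PBS and at 19.5, 18.9 and 19.8 FPKM with nanoparticles. Its groups did not overlap, but the step was small: the mean fell from 25.5 ± 0.819 to 19.4 ± 0.445 FPKM (SD, n = 3), with a log2 difference of -0.38 ± 0.06 (SE). The level of Parp1 was 3.40 ± 0.112 times that of Parp2 in PBS and 1.09 ± 0.0601 times in nanoparticle libraries, on the FPKM scale.

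Parp3 (ENSMUSG00000023249, chromosome 9, 106470322 to 106476949, minus strand), which acts with end joining at double-strand breaks, stood at 4.28, 4.20 and 5.29 FPKM in PBS and at 29.6, 30.4 and 32.1 FPKM with nanoparticles. The lowest nanoparticle library was 5.59 times the highest PBS library. The ratio of means was 6.69 and the log2 difference 2.51 ± 0.09 (SE), rank 169 from the top of the genes tested. Parp1 was 16.3 to 20.7 times as abundant as Parp3 in PBS libraries and 0.674 to 0.708 times as abundant in nanoparticle libraries, so the order of this pair turned over in every library of the treated group. Exons of Parp3 share 20 bases with Rrp9 on the opposite strand, 0.541% of the exon bases of Parp3. Rrp9, a nucleolar RNA processing gene, had a log2 difference of 0.20 ± 0.12 (SE, limma adjusted p = 0.17), which passed with the replicate number as a block (adjusted p = 0.0043) and without nanoparticle replicate 3 (adjusted p = 0.012).

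**Figure D1:**
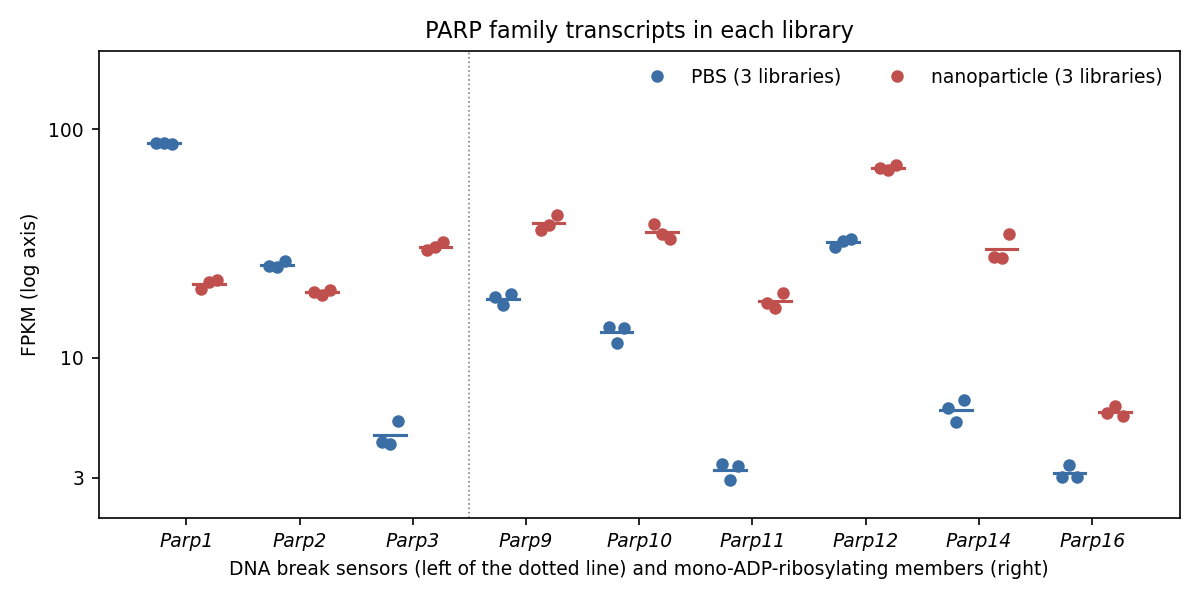
FPKM on a log axis for the 9 members that entered the fit, with 1 point for each of the 3 PBS and 3 nanoparticle libraries and a bar at the group mean. Parp1 and Parp2 lie lower with nanoparticles and the other 7 higher, and in none do the groups overlap. Of all genes tested, 43.7% had non-overlapping groups higher and 35.1% lower. The same values chose the members, so nothing is read from their count. Parp8, at or near 0, is left out.

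The mono-ADP-ribosylating members that entered the fit had higher levels in nanoparticle libraries. In 6 of the 7 the lowest nanoparticle library lay above the highest PBS library, which 43.7% of all genes tested also showed, and the seventh, Parp8, was near 0 throughout. The same values chose these members, so nothing is read from that count. Parp11 and Parp14 had the widest steps and Parp16 the narrowest.

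Parp14 (ENSMUSG00000034422, chromosome 16, 35832874 to 35871544, minus strand), a large macrodomain protein known as a cofactor of STAT6, stood at 6.05, 5.23 and 6.52 FPKM in PBS and at 27.5, 27.4 and 34.8 FPKM with nanoparticles. The third nanoparticle library was the highest, and all 3 were at least 4.21 times the highest PBS value. The mean rose from 5.93 ± 0.651 to 29.9 ± 4.22 FPKM (SD, n = 3), with a log2 difference of 2.15 ± 0.11 (SE). Parp9 (ENSMUSG00000022906, chromosome 16, 35938470 to 35972605, plus strand), a macrodomain protein that works in a complex with the ubiquitin ligase Dtx3l, stood at 18.5, 17.0 and 19.1 FPKM in PBS and at 36.1, 38.0 and 42.1 FPKM with nanoparticles. Its groups were well apart, with a ratio of means of 2.13 and a log2 difference of 1.05 ± 0.07 (SE). Parp14 reached 0.326 ± 0.0164 of the FPKM of Parp9 in PBS and 0.770 ± 0.0527 of it with nanoparticles (SD, n = 3).

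Parp10 (ENSMUSG00000063268, chromosome 15, 76231174 to 76243441, minus strand), which modifies proteins of signalling pathways with single ADP-ribose units, stood at 13.6, 11.7 and 13.5 FPKM in PBS and at 38.4, 34.8 and 33.2 FPKM with nanoparticles. The ratio of means was 2.74 and the log2 difference 1.39 ± 0.08 (SE). Parp12 (ENSMUSG00000038507, chromosome 6, 39086410 to 39118349, minus strand), a zinc finger member known for antiviral activity, stood at 30.4, 32.4 and 33.2 FPKM in PBS and at 67.3, 66.4 and 69.5 FPKM with nanoparticles. It was the most abundant member in every nanoparticle library, with a ratio of means of 2.12 and a log2 difference of 1.06 ± 0.06 (SE).

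Parp11 (ENSMUSG00000037997, chromosome 6, 127446840 to 127494261, plus strand), a WWE-domain enzyme, stood at 3.45, 2.92 and 3.36 FPKM in PBS and at 17.4, 16.6 and 19.1 FPKM with nanoparticles. Its ratio of means, 5.46, was the second highest of the family after Parp3, and its log2 difference was 2.14 ± 0.08 (SE). Parp16 (ENSMUSG00000032392, chromosome 9, 65195353 to 65239224, plus strand), which sits in the membrane of the endoplasmic reticulum and is known from the unfolded protein response, stood at 3.03, 3.39 and 3.01 FPKM in PBS and at 5.74, 6.18 and 5.57 FPKM with nanoparticles. All 3 treated libraries were above the PBS values, with a ratio of means of 1.85 and a log2 difference of 0.72 ± 0.08 (SE).
Parp8 (ENSMUSG00000021725, chromosome 13, 116854820 to 117025537, minus strand) was listed at 0 in the 3 PBS libraries and at 0, 0.0532 and 0.0463 FPKM with nanoparticles. Since its groups overlap and one is at 0, no fold is given.

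By limma with Benjamini-Hochberg adjustment over all genes (threshold 0.05), 7 of the 9 members tested were called higher and 2 lower, and the groups did not overlap in the same direction for 7 and 2. Over all 10229 genes, 42.7% were called higher and 34.5% lower, and 43.7% and 35.1% had non-overlapping groups higher and lower. These counts use the contrast that chose the members, so nothing is read from them. The median log2 difference was 1.22 over the 6 mono-ADP-ribosylating members tested, -0.38 over the 3 sensors and 0.08 over all genes. With a pseudocount of 10 the log2 differences shrank by more than 1.5 times for Parp3 (1.48), Parp11 (1.06), Parp14 (1.32) and Parp16 (0.27). Signs held for all 9 in each of 12 other settings.

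As levels per length, the order of the family changed. In PBS the order by mean FPKM was Parp1, Parp12, Parp2, Parp9, Parp10, Parp14, Parp3, Parp11 and Parp16. The ranges of Parp14 and Parp3 overlapped, as did those of Parp11 and Parp16, and the other neighbours in that order were apart. With nanoparticles the order was Parp12, Parp9, Parp10, Parp3, Parp14, Parp1, Parp2, Parp11 and Parp16. Here the ranges overlapped between Parp9 and Parp10, between Parp3 and Parp14 and between Parp2 and Parp11.

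The members' summed FPKM came to 192 ± 4.30 in PBS and to 267 ± 9.90 with nanoparticles (SD, n = 3). Sensors made up 60.8% ± 0.713 of that sum in PBS and 26.7% ± 0.449 with nanoparticles. Their own sum went from 117 ± 1.30 to 71.2 ± 2.41 FPKM, and that of the mono-ADP-ribosylating members from 75.4 ± 3.05 to 195 ± 7.81 FPKM. Parp1 alone held 43.9% to 46.0% of the members' sum in PBS libraries and 7.62% to 8.27% in nanoparticle libraries. Parp12 took the first place, at 25.0% to 25.7%, from 15.9% to 17.2% in PBS. Parp3 went from 2.23% to 2.69% in PBS libraries to 11.3% to 11.7% with nanoparticles, so it made up more of the family than Parp1 in each treated library.

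**Figure D2:**
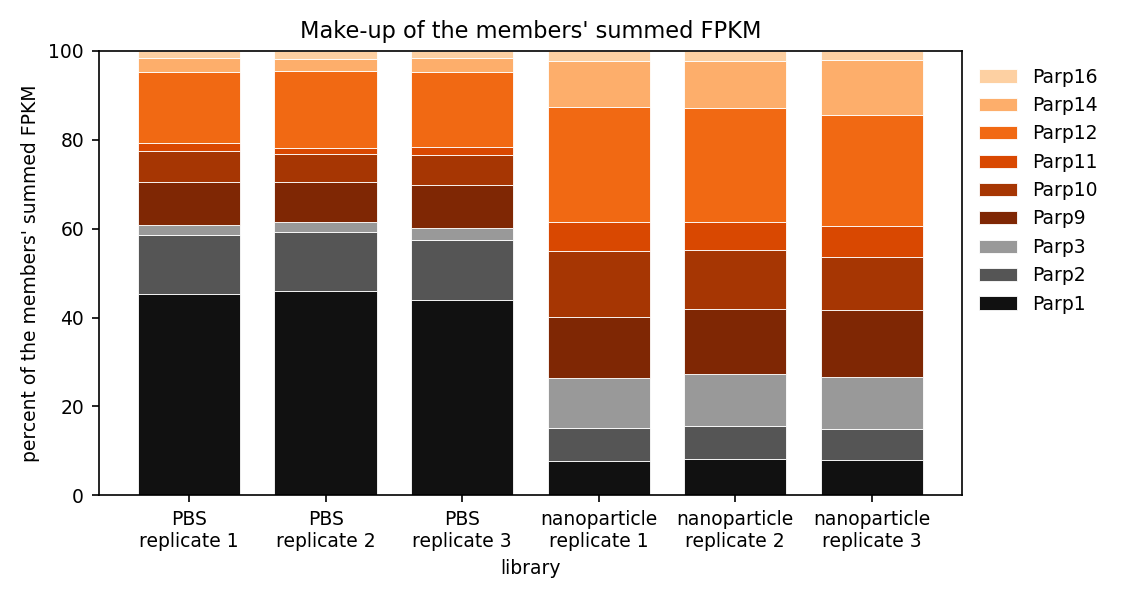
Share of the members' summed FPKM held by each member, in percent, with 1 stacked bar for each library (grey and black for the sensors Parp1 to Parp3, brown to orange for the mono-ADP-ribosylating members; Parp8, at most 0.0204%, is not drawn). The black Parp1 segment covers 43.9% to 46.0% of the PBS bars and 7.62% to 8.27% of the nanoparticle bars.

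The rest of the superfamily was not part of the chosen members, but its list was also made with earlier results of these data known. Of its 6 listed genes, all tested, 5 rose and none fell by limma at an adjusted p of 0.05. Of all genes, 42.7% were called higher and 34.5% lower. The median log2 difference of the list was 0.57. Parp4 (chromosome 14, 56575619 to 56659794), the vault particle PARP, stood at 3.94, 3.55 and 4.05 FPKM in PBS and at 9.69, 8.67 and 10.6 FPKM with nanoparticles. Its log2 difference was 1.13 ± 0.09 (SE, limma adjusted p = 1.4e-06). Tiparp, a mono-ADP-ribosylating target gene of the aryl hydrocarbon receptor, rose from 8.59 ± 0.483 to 14.9 ± 1.69 FPKM (SD, n = 3, limma adjusted p = 3.4e-05). Parp6, another mono-ADP-ribosylating enzyme, rose from 8.17 ± 0.715 to 13.2 ± 0.567 FPKM (limma adjusted p = 3.6e-05). Zc3hav1, which encodes the antiviral RNA-binding protein ZAP and has a PARP domain without activity, rose from 29.0 ± 1.75 to 39.9 ± 3.38 FPKM (limma adjusted p = 0.00033).

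The tankyrases Tnks and Tnks2, which build poly(ADP-ribose) at telomeres and on axin, gave different outcomes. Tnks2 stood at 19.5, 19.4 and 20.4 FPKM in PBS and at 26.9, 27.4 and 31.5 FPKM with nanoparticles, a rise of 0.51 ± 0.07 in log2 (SE, limma adjusted p = 9.3e-05). Tnks stood at 5.08, 4.91 and 5.87 FPKM in PBS and at 5.48, 5.10 and 6.76 FPKM with nanoparticles, and the groups overlapped (log2 difference 0.10 ± 0.10 SE, limma adjusted p = 0.38). Its sign turned with median-ratio scaling. Whether the pair differed from each other was not tested.

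**Figure D3:**
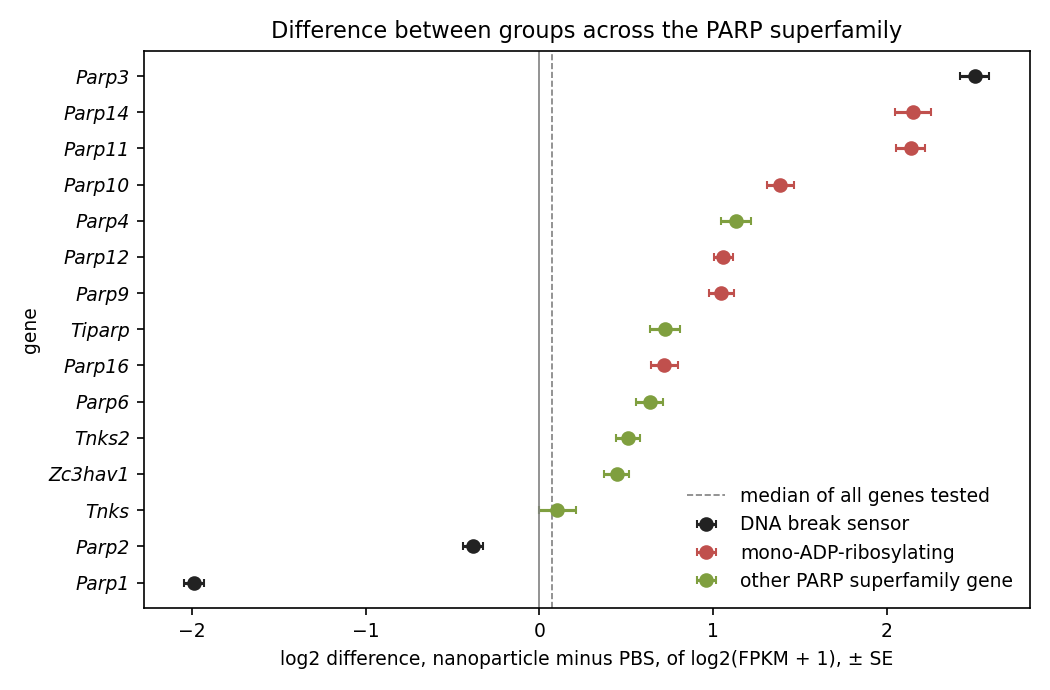
Log2 difference between groups (nanoparticle minus PBS, in log2(FPKM + 1), points with SE bars) for 9 members and 6 other superfamily genes. Parp1 at -1.99 and Parp2 at -0.38 lie below 0, Tnks at 0.10 has an SE that reaches about 0 and changes sign with median-ratio scaling, and Parp3 at 2.51 lies highest; the dashed line is the median of all genes tested, 0.08.

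Parp9 and Parp14 lie on chromosome 16 on either side of Dtx3l. Dtx3l (ENSMUSG00000049502, chromosome 16, 35926511 to 35939151, minus strand), the ubiquitin ligase partner of Parp9, overlaps the start of Parp9 head to head, and 458 exon bases, 9.40% of those of Parp9, are shared. Without knowing whether strand was used in counting, fragments in that stretch cannot be told apart. Dtx3l stood at 7.80, 7.84 and 7.20 FPKM in PBS and at 18.5, 18.6 and 21.5 FPKM with nanoparticles, and rose by 1.25 ± 0.08 in log2 (SE, limma adjusted p = 2.9e-07). On the far sides of the cluster, Hspbap1, 4397 bases from Parp14, rose (log2 difference 0.76 ± 0.10 SE, limma adjusted p = 5.8e-05). Kpna1, an importin gene 6145 bases from Parp9, was lower (log2 difference -0.20 ± 0.07 SE, limma adjusted p = 0.033). That call was lost without PBS replicate 2 or 3 or nanoparticle replicate 1 or 2 (adjusted p of 0.067 to 0.12) and with no filter on low values (0.056).

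Across the family the nearest protein-coding genes on both sides came to 19 different genes, of which 10 were tested, 6 higher, 2 lower and 2 not past the threshold, beside 42.7% and 34.5% of all genes. Grina, 3323 bases from Parp10, rose from 33.3 ± 2.02 to 201 ± 21.3 FPKM (SD, n = 3, limma adjusted p = 2.9e-09). Plec, the cytoskeletal linker gene on the other side, shares 205 exon bases with Parp10, 4.80% of those of Parp10, on the same strand. Its log2 difference was -0.18 ± 0.10 (SE, limma adjusted p = 0.10), and it passed with the replicate block (adjusted p = 0.024), with upper quartile or median-ratio scaling (0.018 and 0.013) and without PBS replicate 2 (0.015). Tep1, which encodes the telomerase-associated vault protein and lies 2758 bases from Parp2, fell from 9.80 ± 0.372 to 4.29 ± 0.317 FPKM (limma adjusted p = 9.4e-07). Lin9, a cell cycle regulator 39896 bases from Parp1, rose by 0.44 ± 0.08 in log2 (SE, limma adjusted p = 0.00054) where Parp1 fell. Kdm7a, 18274 bases from Parp12, was higher by 0.51 ± 0.11 in log2 (SE, limma adjusted p = 0.0019). Ccnd2, 294647 bases from Parp11, was higher by 0.27 ± 0.08 in log2 (SE, limma adjusted p = 0.0091). The call of Ccnd2 did not pass the threshold with median-ratio scaling (adjusted p = 0.060).

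Genes that read or remove ADP-ribose were called in both directions, in shares near those of all genes. The table held 24 of them, of which 19 were tested, 10 rose (52.6%) and 7 fell (36.8%), beside 42.7% and 34.5% of all genes, with a median log2 difference of 0.33. Parg, the main poly(ADP-ribose) glycohydrolase, stood at 9.24, 9.68 and 9.73 FPKM in PBS and at 13.5, 14.5 and 15.5 FPKM with nanoparticles (log2 difference 0.56 ± 0.07 SE, limma adjusted p = 5.1e-05). Adprs, the hydrolase ARH3 that removes the last ADP-ribose from serine, went the other way, from 23.3 ± 1.48 to 13.9 ± 1.21 FPKM (limma adjusted p = 1.8e-05). Hpf1, the cofactor that directs Parp1 and Parp2 to serine, fell from 74.6 ± 4.44 to 55.5 ± 3.68 FPKM (SD, n = 3, limma adjusted p = 0.00024). Parg, Adprs and Hpf1 are named for their roles after their values were seen. By the naming rule, Gdap2, a macrodomain gene, rose from 13.6 ± 0.414 to 29.2 ± 1.59 FPKM (limma adjusted p = 2.3e-07). Chd1l, a chromatin remodeller switched on by poly(ADP-ribose), fell from 18.8 ± 0.763 to 7.54 ± 0.240 FPKM (limma adjusted p = 1.0e-07), and Dtx4, of the Deltex ligase family, from 13.3 ± 0.348 to 5.63 ± 0.125 FPKM (limma adjusted p = 1.9e-07).

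The partners of Parp1 in single-strand break repair were called in both directions. Hpf1, Aplf, Chd1l, Parg and Adprs are in this list and in that of readers and erasers, so the counts are not separate. Among 16 tested genes, 8 were lower (50%) and 6 higher (37.5%) at the threshold, beside 34.5% and 42.7% of all genes, for a median log2 difference of -0.21. Tdp1, which clears topoisomerase I remnants from DNA ends, stood at 36.6, 33.9 and 32.7 FPKM in PBS and at 10.3, 10.7 and 12.3 FPKM with nanoparticles, a log2 difference of -1.55 ± 0.08 (SE, limma adjusted p = 6.3e-08). Polb, the gap-filling polymerase, rose from 19.7 ± 1.25 to 37.2 ± 0.876 FPKM (SD, n = 3, limma adjusted p = 7.3e-07), and Aplf, an end-joining factor that binds poly(ADP-ribose), from 6.09 ± 0.240 to 10.8 ± 0.674 FPKM (limma adjusted p = 8.4e-06). Xrcc1, the scaffold that poly(ADP-ribose) recruits, named for its role after its values were seen, stood at 34.7, 32.9 and 32.9 FPKM in PBS and at 39.5, 35.2 and 35.3 FPKM with nanoparticles. It did not pass (log2 difference 0.12 ± 0.06 SE, limma adjusted p = 0.094), passed with the replicate block (adjusted p = 0.031), and was near 0 with median-ratio scaling. With that scaling the list stood at 4 higher and 9 lower, beside 3690 and 4197 of all 10229 genes.

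Of NAD+ supply and consumer genes the table held 31, of which 19 were tested, 14 rose (73.7%) and 3 fell (15.8%), beside 42.7% and 34.5% of all genes (median log2 difference 0.39). Kmo, among the genes called higher, averaged 0.441 FPKM in PBS and 1.61 FPKM with nanoparticles. It met the filter on mean FPKM only through the nanoparticle group, so its call is no separate evidence. With median-ratio scaling, which shifted the median log2 difference of all genes by -0.11, the counts were 9 and 4, beside 3690 and 4197 of all 10229 genes. With upper quartile scaling they were 11 and 4, beside 3809 and 4082. Nampt, which makes NAD+ from nicotinamide and is named for its role after its values were seen, stood at 30.1, 33.8 and 33.8 FPKM in PBS and at 48.8, 51.7 and 56.4 FPKM with nanoparticles (log2 difference 0.67 ± 0.07 SE, limma adjusted p = 1.5e-05). The NAD+-dependent deacylase genes Sirt1 and Sirt2 rose from 6.04 ± 0.460 to 16.8 ± 2.30 FPKM and from 30.0 ± 1.32 to 54.5 ± 1.62 FPKM (SD, n = 3, limma adjusted p of 9.1e-07 and 5.4e-07). Sirt5, a mitochondrial desuccinylase, fell from 5.23 ± 0.676 to 2.28 ± 0.242 FPKM (limma adjusted p = 1.5e-05). Nadsyn1, NAD+ synthetase, fell from 3.14 ± 0.598 to 1.26 ± 0.211 FPKM (limma adjusted p = 8.0e-05).

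Of the listed interferon signalling genes, 11 of 14 tested were higher and 3 lower, beside 42.7% and 34.5% of all genes. The median log2 difference was 0.49. With median-ratio scaling the counts were 9 and 3, beside 3690 and 4197 of all 10229 genes. With upper quartile scaling they were 10 and 3, beside 3809 and 4082, and without PBS replicate 1 they were 11 and 2, beside 4115 and 3299. Whether these genes had a part in the levels of the members was not tested. Irf7, the interferon regulatory factor that amplifies the response, rose from 52.5 ± 2.20 to 1047 ± 63.4 FPKM (SD, n = 3, log2 difference 4.29 ± 0.06 SE, limma adjusted p = 3.2e-11). Usp18, the protease that restrains interferon receptor signalling, rose from 30.7 ± 1.38 to 296 ± 12.5 FPKM (SD, n = 3, limma adjusted p = 9.2e-11). Stat2 and Irf9, transcription factors of the interferon response named for their roles after their values were seen, rose from 6.76 ± 0.536 to 56.7 ± 3.17 FPKM and from 22.8 ± 0.491 to 33.4 ± 1.03 FPKM (SD, n = 3, limma adjusted p of 6.7e-10 and 1.2e-05). Ifnb1, chosen in the same way, was listed at 0 in the PBS libraries and at 3.62, 4.45 and 3.74 FPKM with nanoparticles. It met the filter on mean FPKM only through the nanoparticle group and could not have been called lower. It is counted among the 11 called higher. Tyk2 and Ifnar2, a kinase and a receptor chain of interferon signalling, fell, with log2 differences of -0.45 ± 0.06 and -0.31 ± 0.06 (SE, limma adjusted p of 9.1e-05 and 0.00056).

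**Figure D4:**
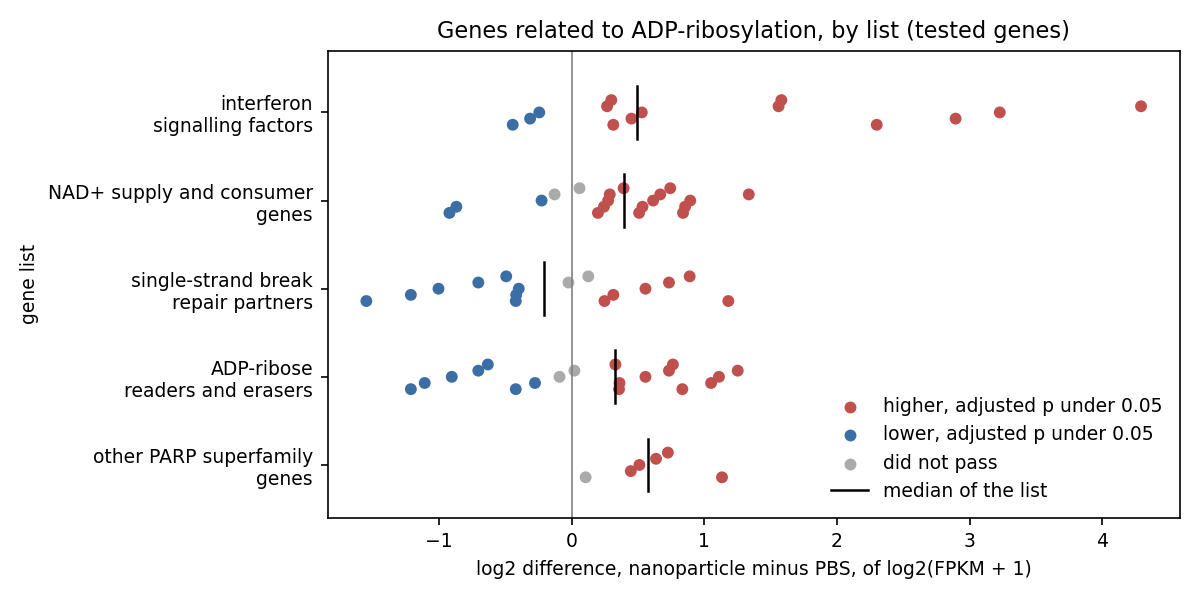
Log2 difference (nanoparticle minus PBS, in log2(FPKM + 1)) of each tested gene in 5 lists, coloured by whether it was called higher, called lower or did not pass, with a black line at each list's median. The superfamily list has 5 points called higher and 1, Tnks, grey. Of all genes tested, 42.7% were called higher and 34.5% lower. The repair list spreads from -1.55 to 1.18 around a median of -0.21. Its point at 1.18, the gene Aptx, stands at 0.79 without PBS replicate 3. With median-ratio scaling Tnks and Xrcc1 lose their positive sign. The NAD+ counts then go from 14 and 3 to 9 and 4, beside 3690 and 4197 of all 10229 genes.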

How the data were processed

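RNA was extracted with TRIzol and libraries were made by a BGI mRNA protocol, per the labels' protocols. The submitters' processing notes name STAR, featureCounts, GRCm38 and mm10 without versions. The deposited table gives 1 value per gene and library, taken as FPKM scaled by the authors, since values were not whole and library sums differed (448812 to 467016). The unit is an inference, as no header states it. The column matched to PBS replicate 1 carries a suffix that the label lacks. Rows without a gene identifier (509, at most 0.497% of FPKM) were left out. Sequencing depth is unknown. At best 36.6% of low values were whole multiples (within 0.05) of a common step, so fragments were not recovered.

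Coordinates come from GENCODE M21 (GRCm38), where 21995 of the 22105 genes were found. Genes averaging 1 FPKM or more were fitted as log2(FPKM + 1) with limma 3.58.1 (R 4.3.3, intensity trend, treatment only, two-sided, Benjamini-Hochberg over 10229 genes). Python 3.11.15 with pandas 2.3.3 handled tables. The fit was also run on simulated data in which far fewer genes changed than were called here. Nothing on the calls is read from that run. Deviations of same-numbered replicates correlated at 0.1298, 0.1149 and 0.3536 over genes. Each is over 0.1, but PBS replicate 2 with nanoparticle replicate 1 reached 0.1341. Whether the numbers, given in the titles, mark pairs is therefore not settled. The main fit leaves the number out, and a block is given where it changes a call. Alternatives were pseudocounts of 0.1 and 10, no filter, upper quartile and median-ratio scaling, the block and leaving out each library. Members, lists and the naming rule (all members, the 6 other superfamily genes, the 2 smallest p-values per direction in each list, and tested neighbours) were chosen with earlier results of these data known. Protein sequences were not used here, and 1 gene of the interferon list is counted but not reported by name.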

Additional observations from a re-analysis of the deposited data

How the results depend on the processing

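All 108 recomputed log2 differences of the members kept their sign, and 24 moved by at least 1 SD between replicates, under the pseudocounts or the scalings. Parp1 ranged from -2.11 to -1.64 and Parp2 from -0.50 to -0.27. Calls over all genes numbered 4366 higher and 3530 lower, 4609 and 3742 with the replicate block, 3690 and 4197 with median-ratio scaling, 6244 and 3560 with no filter, and 4115 to 4327 and 3250 to 3596 without 1 library. NAD+ genes called higher fell to 9 from 14 with median-ratio scaling, and were 12 to 14 without 1 library. Of 46 tested genes recomputed, 8 changed a call or sign in some setting: Ccnd2, Fen1, Kpna1, Lig3, Plec, Rrp9, Tnks and Xrcc1. Fen1, a flap nuclease gene, passed only with median-ratio scaling (adjusted p = 0.031). With median-ratio scaling Tnks stood at -0.0043 and Xrcc1 at -4.4e-06. Lig3, a repair ligase with an adjusted p of 0.049, lost its call in 9 of 12 settings (0.050 to 0.25). The replicate block took Rrp9, Plec and Xrcc1 past the threshold and ended no call of the genes named. The FPKM scale limits statements on low genes, as depth is unknown and a level such as that of Parp8 is near 0.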
